A study of Mus musculus with 6 samples.

Results

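The genes described here were the ligands of the epidermal growth factor (EGF) family and the ErbB receptors that bind them, measured in villi of newborn mice with and without TRPM7, a cation channel fused to a protein kinase, in the intestinal epithelium. The list held 10 genes, the 7 ligands Ereg, Areg, Hbegf, Tgfa, Btc, Egf and Epgn and the 3 receptors Egfr, Erbb2 and Erbb3. A gene counted as measured where the array's annotation gave a probe set to its symbol alone, which was so for 9 of the 10, out of 19938 such genes and 30177 probe sets on the array. Each of the 9 had a single probe set of this kind. Areg had none, and a probe set that the study's own table names Areg is described apart and was not counted. The list was chosen by symbol with the differences between mutant and control villi already known, so the members' differences are a description, given with no test.

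Control animals were Trpm7 fl/fl pups and the mutants were their Trpm7 fl/fl;Villin1-Cre littermates (Trpm7-intestine KO), 3 samples of each genotype, all taken at an age of 5 days. Both groups therefore carried the floxed Trpm7 alleles, and the mutants in addition carried the Cre transgene, which is driven by the Villin1 promoter, acts in enterocytes throughout the intestine and leaves a frameshift in Trpm7. The paper reports that mutants of this age were growth retarded and that some had died. It also found low serum zinc, magnesium and calcium, hypothyroidism and high circulating IL-6 in them. The part of this state of the pups in the differences described here was not tested. The labels give the genetic background as C57BL/6, whereas the methods place the floxed line and the Cre line on different inbred strains, the Cre line on C57BL/6J, and the labels give the sex as unknown. Total RNA of mechanically detached villi was hybridised to 1 whole-transcript array per sample, and the values are log2 signals with array medians between 6.24 and 6.3.

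EGF-family ligands are made as membrane-anchored precursors that metalloproteases cut free, and they act over short distances on cells that carry ErbB receptors. Binding makes the receptors pair and phosphorylate each other, which starts the ERK and AKT kinase cascades and, within minutes to hours, a wave of early response genes that includes the pathway's own inhibitors. In the intestinal epithelium these signals are known for their part in proliferation of crypt cells, in movement of cells over wounds and in regrowth after injury. In suckling animals EGF itself also arrives with the milk.

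Trpm7 fell from 9.11, 8.96 and 9.03 in the controls to 8.03, 7.79 and 7.88 in the mutants, a difference of -1.13 (SE 0.088, adjusted p = 0.00019 by limma over all probe sets). By qPCR the paper found wild-type Trpm7 transcripts nearly undetectable in mutant villi. Which parts of the transcript the probe set reads was not checked, so this difference does not measure how much intact transcript remained. Sex-linked transcripts did not fully split by group, but Xist was high in every control and low in mutants 2 and 3. The part of sex in the members' differences was not tested. Xist, which is made from the inactive X chromosome, lay between 9.66 and 10.48 in the 3 controls, at 10.18 in mutant 1, and at 4.76 and 5.26 in mutants 2 and 3, and the Y-linked Eif2s3y lay at 3.63 and 3.56 in control 1 and mutant 1 and between 7.71 and 8.5 in the other 4. Controls 2 and 3 thus held both transcripts at high signal, which is not the pattern of a single male or female pup, and whether they were pools or mixtures was not tested. They differed from each other by a mean of 0.13 over all probe sets, against 0.156 to 0.178 for the other same-group pairs, so the members and the pathway genes named by rule were also fitted with these 2 arrays averaged to 1 sample. Villi are a mixed tissue. Of the marker lists, limma called 5 higher and 1 lower of 10 enterocyte markers, 5 higher of 8 crypt markers, 5 lower of 5 goblet markers, 2 higher and 1 lower of 5 Paneth and Brunner gland markers, 3 higher of 7 mesenchyme markers, 2 lower of 5 endothelium markers, 1 higher and 1 lower of 7 macrophage and lymphocyte markers, 5 higher of 6 neutrophil markers, 1 lower of 5 neuron and glia markers, and 0 of 6 smooth muscle markers, of which 0 had an unadjusted p under 0.05. Over all genes on the array, with 1 probe set per gene, 19.5% were called, and nothing is read from marker counts near that share. In bulk RNA, fewer cells of a type and less RNA per cell cannot be told apart.

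On chromosome 5 the ligand genes Epgn, Ereg, Areg and Btc follow one another in the RefSeq annotation of GRCm38.p6 with no other protein-coding gene between them. The 250 bases before the annotated start of Areg, Btc and Epgn are shown because these neighbours differed in their response, and those of Egfr because it was the receptor that was higher in the mutants. RefSeq promoter windows were matched for 7 of the 10 listed genes, and Ereg, Hbegf and Erbb3 are named only. Capitals mark matches to the 4 motifs searched on both strands, the AP-1 site TGANTCA, the cAMP response element TGACGTCA, the antioxidant response element core TGACNNNGC and the TATA box TATAAA. The Areg window lies at chr5:91139349-91139598 on the plus strand, the Btc window at chr5:91402995-91403244 on the minus strand, the Epgn window at chr5:91027267-91027516 on the plus strand and the Egfr window at chr11:16751953-16752202 on the plus strand, each printed in the direction of its gene.
Areg: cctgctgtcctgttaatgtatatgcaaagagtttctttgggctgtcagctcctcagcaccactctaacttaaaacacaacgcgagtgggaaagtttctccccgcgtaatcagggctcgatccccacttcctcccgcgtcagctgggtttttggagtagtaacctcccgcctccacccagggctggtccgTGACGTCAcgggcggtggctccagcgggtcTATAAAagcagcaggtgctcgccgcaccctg
Btc: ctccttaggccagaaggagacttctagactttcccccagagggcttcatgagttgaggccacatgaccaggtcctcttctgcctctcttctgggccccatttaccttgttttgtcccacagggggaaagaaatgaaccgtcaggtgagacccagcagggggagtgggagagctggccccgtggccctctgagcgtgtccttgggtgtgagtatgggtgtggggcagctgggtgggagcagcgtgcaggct
Epgn: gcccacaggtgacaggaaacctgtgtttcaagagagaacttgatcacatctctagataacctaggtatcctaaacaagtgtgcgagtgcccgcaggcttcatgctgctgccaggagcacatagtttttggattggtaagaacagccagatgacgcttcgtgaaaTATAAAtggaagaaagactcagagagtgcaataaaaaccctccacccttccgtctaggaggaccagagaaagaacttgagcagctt
Egfr: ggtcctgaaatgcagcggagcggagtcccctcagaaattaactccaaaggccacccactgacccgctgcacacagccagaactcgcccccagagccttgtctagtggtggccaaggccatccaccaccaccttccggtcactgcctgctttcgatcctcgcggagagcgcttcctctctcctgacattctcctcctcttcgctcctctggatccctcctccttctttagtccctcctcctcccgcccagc

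In the Areg window the cAMP response element stood 61 to 54 bases before the start and the TATA box 31 to 26 bases before it. Among 32851 windows of this length, 1.55% held TGACGTCA and 12.4% held TATAAA. The Epgn window held a TATA box 86 to 81 bases before the start, and the Btc and Egfr windows held none of the 4 motifs, nor did those of Tgfa, Egf and Erbb2. The other motifs, found in none of the members' windows, occurred in 6.75% of all windows for the AP-1 site and 10.2% for the antioxidant response element core. A match is a string of letters and not a measured site.

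Of the 9 measured members, 5 were called at an adjusted p of 0.05 or less by limma, 4 higher and 1 lower in the mutants. Ereg, Hbegf, Btc and Egfr were higher, Erbb2 was lower, and Tgfa, Egf, Epgn and Erbb3 were not called. Over all probe sets 16.9% were called, 8.04% higher and 8.82% lower. Ereg and Hbegf also passed a 2-fold threshold, which 2.53% of all probe sets did. The mutant and control arrays did not overlap for 6 of the 9, and did not for 34.5% of all probe sets. The median difference was 0.05 over the members and 0.0033 over all probe sets, and the median size of the difference regardless of sign was 0.31 and 0.13. Nothing is read from these counts, since the same contrast chose the list.

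**Figure D1:**
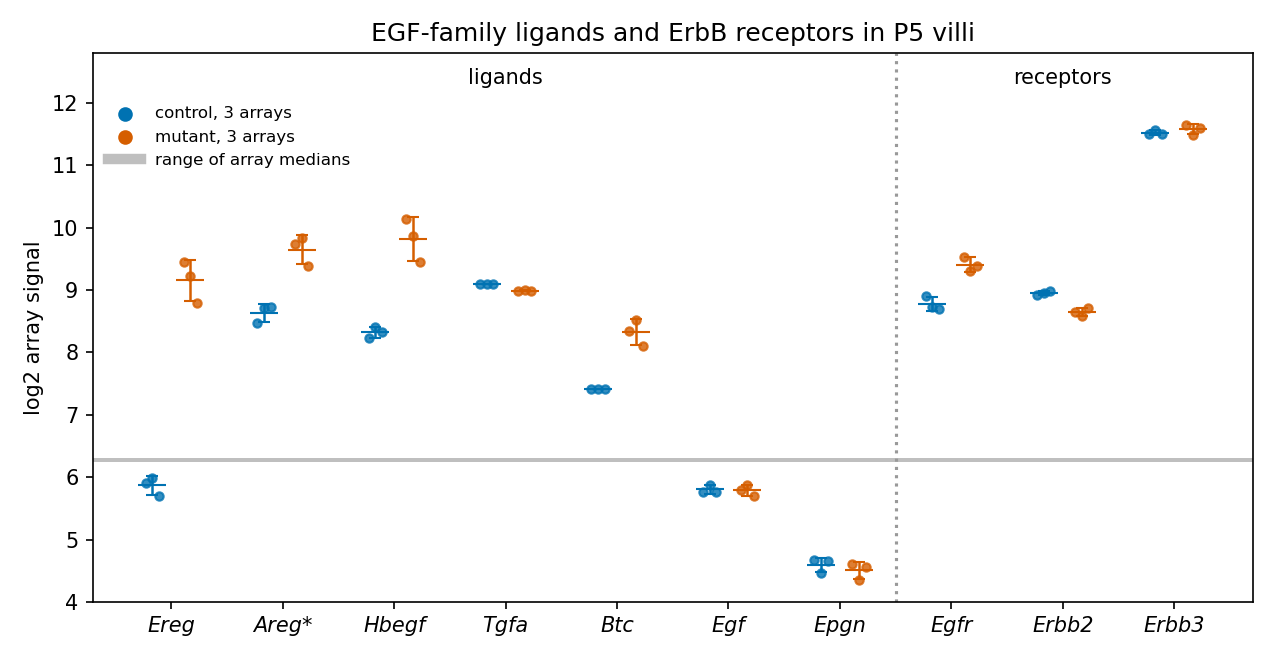
Log2 array signal of each ligand (left of the dotted line) and receptor (right) in the 3 control and 3 mutant arrays, with points for arrays (replicates 1 to 3 from left to right), long bars for group means, error bars for the SD and a grey line for the range of the 6 array medians. The mutant points of Ereg, Hbegf, Btc, Egfr and the probe set the study names Areg (asterisk) lie above all their control points, and those of Erbb2 and, by 0.09, of Tgfa lie below.

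Ereg encodes epiregulin, a ligand of EGFR and ERBB4 that is low in most resting adult tissues. Its signal was 5.91, 5.99 and 5.70 in the controls and 9.45, 9.22 and 8.79 in the mutants. All 3 mutant arrays were far above all 3 controls, with a gap of 2.8 between the groups. The mean rose from 5.87 ± 0.15 to 9.15 ± 0.34 (SD, n = 3), a difference of 3.29 on the log2 scale (SE 0.16) or 9.76-fold in array signal. Among all 30177 probe sets, 19 had a higher difference. The control mean lay under the array medians, and whether it was above background was not tested, so the fold is a ratio of signals.

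Hbegf encodes heparin-binding EGF-like growth factor, a ligand of EGFR and ERBB4 whose membrane-bound precursor is also the diphtheria toxin receptor. Hbegf read 8.23, 8.41 and 8.32 in the controls and 10.14, 9.86 and 9.45 in the mutants. The groups were 1.04 apart at their nearest points. The mean rose from 8.32 ± 0.09 to 9.82 ± 0.35, a difference of 1.50 (SE 0.16, n = 3 per group) or 2.82-fold, and 193 probe sets had a higher difference.

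Btc encodes betacellulin, which also binds EGFR and ERBB4. Control arrays read 7.41, 7.41 and 7.42, and mutant arrays 8.35, 8.52 and 8.10. The controls agreed to within 0.01 while the mutants spread over a wider range, and the groups did not overlap. The difference was 0.91 (SE 0.11) or 1.88-fold, short of 2-fold.

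Areg encodes amphiregulin, an EGFR ligand. The probe set that the study's table gives this name read 8.47, 8.71 and 8.72 in the controls and 9.73, 9.83 and 9.38 in the mutants. All mutant arrays were above the controls, by at least 0.66. Its difference was 1.01 (SE 0.13) or 2.02-fold, and it was called higher in the fit over all probe sets. Counting it would make 6 of 10 members called.

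The remaining ligands were not called. Tgfa encodes transforming growth factor alpha, the EGFR ligand made by much of the villus epithelium. It read 9.10, 9.10 and 9.09 in the controls and 8.99, 9.0 and 8.98 in the mutants. The groups did not overlap, yet they were separated by just 0.09, the difference of -0.11 (SE 0.066) was small and Tgfa was not called. Egf, the founding ligand of the family, read 5.76, 5.88 and 5.77 in the controls and 5.79, 5.87 and 5.70 in the mutants, a difference of -0.02 (SE 0.079) with overlapping groups. Epgn, which encodes the EGFR ligand epigen, read 4.67, 4.46 and 4.65 in the controls and 4.61, 4.35 and 4.56 in the mutants, a difference of -0.09 (SE 0.099), again with overlap. Both groups of Egf and Epgn lay under the array medians, and whether they were above background was not tested.

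Within the chromosome 5 cluster, the 4 ligand genes therefore differed. Ereg, Btc and the probe set named Areg were higher in the mutants and Epgn was not called, while the flanking genes Mthfd2l (difference 0.00, SE 0.092) and Parm1 (difference -0.29, SE 0.13) were not called either. Values of the 4 ligands are those given above.

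**Figure D2:**
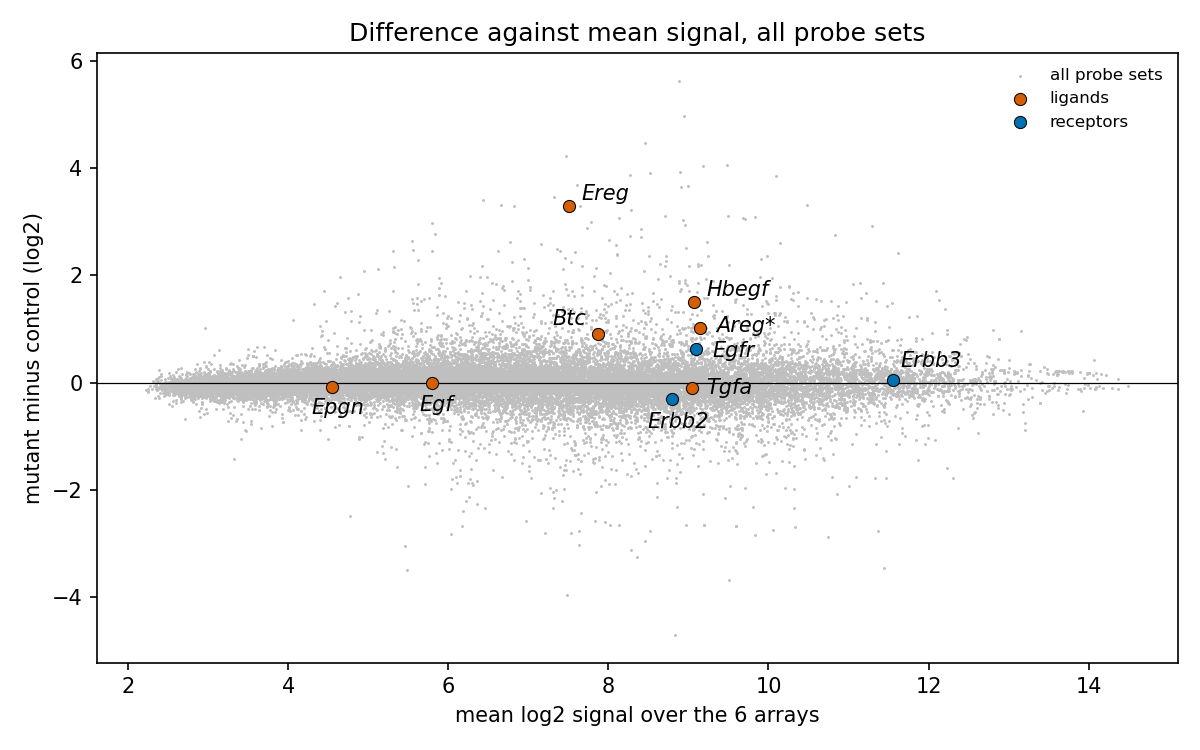
Mutant minus control difference (log2) against the mean log2 signal over the 6 arrays for all 30177 probe sets (grey), with the ligands in orange and the receptors in blue. Ereg, at 3.29, lies near the upper edge of the cloud, Hbegf, Btc, Egfr and the probe set the study names Areg (asterisk) lie above its dense part, and the other members lie within 0.31 of the zero line.

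Among the receptors, Egfr and Erbb2 moved in opposite directions. Egfr encodes the receptor for all 7 listed ligands. Control arrays read 8.90, 8.73 and 8.70 and mutant arrays 9.53, 9.30 and 9.39. Every mutant array was above every control, with a gap of 0.4. The mean rose from 8.78 ± 0.11 to 9.41 ± 0.12, a difference of 0.63 (SE 0.092, n = 3 per group) or 1.55-fold.

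Erbb2 encodes the receptor that binds no known ligand of its own and serves as the preferred partner of the others. It read 8.92, 8.95 and 8.99 in the controls and 8.64, 8.59 and 8.71 in the mutants. The mutants were lower by 0.31 (SE 0.071), 1.24-fold, with a gap of 0.21. This call was lost with controls 2 and 3 averaged (difference -0.30), without control 2 (-0.31), without control 3 (-0.29), without mutant 1 (-0.30) and without mutant 2 (-0.28). A further probe set, which the annotation gives to both Erbb2 and Sympk and which therefore names neither, read 7.11, 7.37 and 7.34 in the controls and 7.87, 8.12 and 8.17 in the mutants. It was called higher by 0.78 (SE 0.11), opposite to the probe set that is Erbb2's alone.

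Erbb3 encodes a receptor with an impaired kinase that binds neuregulins and signals mainly through phosphatidylinositol 3-kinase. It read 11.50, 11.57 and 11.50 in the controls and 11.65, 11.49 and 11.59 in the mutants. The groups overlapped, the difference was 0.05 (SE 0.075) and Erbb3 was not called.

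With controls 2 and 3 averaged, Ereg differed by 3.28, Hbegf by 1.52, Btc by 0.91, Egfr by 0.60 and the probe set named Areg by 1.05, and all 5 were still called. Tgfa (-0.11), Egf (-0.0058), Epgn (-0.11) and Erbb3 (0.06) were still not called.

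The mutants were not uniform. Mutant 3 had the lowest signal of the 3 mutants for Ereg, Hbegf and Btc, 3 of the 4 members called higher, and mutant 2 had it for Egfr. How often mutant 3 was lowest over all probe sets called higher was not computed. The summed level of the 6 neutrophil markers, in log2, was 7.64, 7.73 and 7.77 in the controls and 9.67, 10.2 and 11.7 in the mutants. It was therefore highest in mutant 3, where those 3 ligands were lowest among the mutants. S100a8 and S100a9, which encode calcium-binding proteins abundant in neutrophils, rose by 3.31 (adjusted p = 0.0071) and 3.46 (adjusted p = 0.0035), and the control means of all 6 markers lay under the array medians. The sum adds linear signals, so the brightest markers weigh most in it. Ly6g, named after its values were seen, was instead highest in mutant 1 (6.7, 4.45 and 4.77 in the mutants) and was not called. The part of neutrophils in the members' differences was not tested. Summed goblet markers ran from 14.4 to 14.5 in the controls and from 11.7 to 11.9 in the mutants, with no overlap. The called goblet genes with the largest differences were Clca1 (-3.46) and Tff3 (-2.78). Summed crypt markers were 11.3, 12 and 12 in the controls and 11.9, 12 and 12 in the mutants. That sum hides differences between its genes. Of the 8 crypt markers 5 were called higher, led by Mki67 at 0.92 and Axin2 at 0.70. Mki67 read 7.79, 8.72 and 8.81 in the controls and 9.38, 9.21 and 9.49 in the mutants (SE 0.25, adjusted p = 0.0395 by limma). Control 1 thus lay well below controls 2 and 3, and Mki67 was not refitted under the alternatives. The paper reports Mki67 as unchanged in mutant villi of this age, by qPCR and in its array data. The bright Olfm4, named after its values were seen, differed by -0.95 and was not called. The part of these cells in the members' differences was not tested either.

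**Figure D3:**
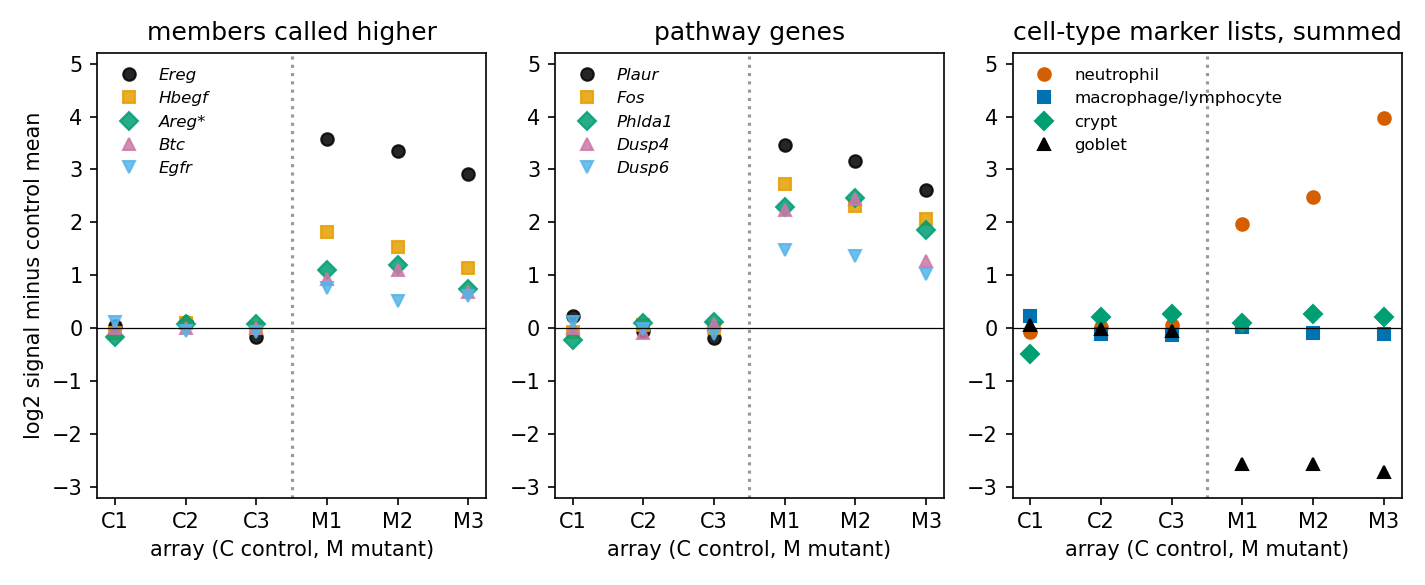
Log2 signal minus the control mean in each array (C1 to C3 control, M1 to M3 mutant) for members called higher and the probe set the study names Areg (asterisk), for 5 pathway genes, and for the summed level of 4 marker lists. Ereg, Hbegf and Btc are lowest among the mutants in M3, while the neutrophil sum is highest there, at 11.7 against 9.67 and 10.2 before the control mean is subtracted.

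Other genes of the pathway were taken from 5 lists fixed by role. Of 81 listed, 76 had a probe set of their own, and 20 of these were called higher and 9 lower, 29 in all, with a median difference of 0.15. With controls 2 and 3 averaged, 25 were called, and of the genes named by rule from these lists Timp3 and Adam8 lost their call. With 1 probe set per gene, 19.5% of all genes on the array were called. These lists too were drawn up with earlier results known.

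Among the 4 neuregulins and Erbb4, the receptors' other ligands and their remaining member, 1 of 5 was called. Nrg1, a ligand of ERBB3 and ERBB4, read 6.80, 6.88 and 7.01 in the controls and 7.76, 7.69 and 7.59 in the mutants, a rise of 0.78 (SE 0.086, adjusted p = 0.00086). No mutant array came within the control range. Erbb4, named after its values were seen, lay between 4.52 and 4.73 on all 6 arrays, under the array medians, and differed by -0.02.

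The list for ligand shedding and trafficking held 13 genes, of which 2 were called higher, 2 lower and 9 not called, with a median difference of -0.03. Adam9, a membrane metalloprotease, read 10.88, 10.68 and 10.65 in the controls and 9.77, 9.52 and 9.98 in the mutants, lower by 0.98 (SE 0.13, adjusted p = 0.0018). Timp3, a secreted inhibitor of metalloproteases that include ADAM17, differed by -0.83 (SE 0.17, adjusted p = 0.0141), but with controls 2 and 3 averaged the adjusted p was 0.0501, without control 2 0.0534 and without control 3 0.0515. Frmd8, which stabilises the iRhom and ADAM17 complex at the cell surface, was higher by 0.70 (SE 0.12, adjusted p = 0.0067). Adam8, a metalloprotease of leukocytes among other cells, read 5.85, 5.82 and 5.82 in the controls and 6.32, 6.34 and 7.16 in the mutants, a difference of 0.78 (SE 0.21, adjusted p = 0.0383). Its highest value was in mutant 3, the array with the highest neutrophil sum, and the part of neutrophils in the Adam8 signal was not tested. The Adam8 call was lost with controls 2 and 3 averaged (adjusted p = 0.0986) and with an offset of 32 (0.0763). Leaving out control 1 (0.088), control 2 (0.0992) or control 3 (0.102) lost it as well. The main sheddases of the family, named after their values were seen, were not called, with differences of -0.12 for Adam17 (adjusted p = 0.353) and -0.13 for Adam10 (adjusted p = 0.36).

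Of 22 genes that restrain the receptors or their cascade, 7 were called higher, 2 lower and 13 not, with a median difference of 0.16. The 3 leading ones were phosphatases that inactivate ERK or its relatives. Dusp4 read 5.42, 5.32 and 5.48 in the controls and 7.64, 7.84 and 6.67 in the mutants, a rise of 1.98 (SE 0.27, adjusted p = 0.0022). Dusp6 read 9.63, 9.48 and 9.40 in the controls and 10.98, 10.87 and 10.53 in the mutants, a rise of 1.29 (SE 0.13, adjusted p = 0.00052). For both, mutant 3 was the lowest mutant array and still lay above every control. Dusp5 rose by 0.87 (SE 0.18, adjusted p = 0.0134), a call that was lost without control 2 (adjusted p = 0.0514), and Spred1, an inhibitor of RAS signalling, rose by 0.57 (SE 0.081, adjusted p = 0.0028). The genes called lower, named after their values were seen, were the ubiquitin ligases Cbl and Cblb, which mark activated EGFR for degradation. Each differed by -0.51, with adjusted p values of 0.0094 for Cbl and 0.0021 for Cblb.

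The signal relay list had 19 measured genes, of which 1 was called higher, 4 lower and 14 not, with a median difference of 0.01. Plcg1, a phospholipase recruited by active receptors, read 8.26, 8.12 and 7.99 in the controls and 7.16, 7.12 and 7.50 in the mutants, lower by 0.86 (SE 0.12, adjusted p = 0.0026). The kinase genes Akt2 and Akt1 were lower by 0.53 (adjusted p = 0.0025) and 0.49 (adjusted p = 0.0047). Araf, which encodes a kinase of the ERK cascade, differed by -0.40 (adjusted p = 0.0142), which was 0.0537 without control 2. The call in the other direction, named after its value was seen, was Map2k1, which encodes an ERK-activating kinase and was higher by 0.39 (adjusted p = 0.0093).

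The early response list had 17 genes, of which 9 were called higher, 1 lower and 7 not, with a median difference of 0.55. Genes of this kind answer to many stimuli besides ErbB ligands. Plaur, the urokinase receptor, read 6.83, 6.55 and 6.41 in the controls and 10.05, 9.76 and 9.21 in the mutants, a rise of 3.08 (SE 0.21, adjusted p = 0.00011). Fos, a subunit of the AP-1 transcription factor, read 7.26, 7.39 and 7.32 in the controls and 10.04, 9.64 and 9.39 in the mutants, a rise of 2.37 (SE 0.15, adjusted p = 9.1e-05). The groups were well apart for both genes, and mutant 3 was again the lowest mutant array. Phlda1, an early response gene with a pleckstrin homology-like domain, rose by 2.20 (SE 0.16, adjusted p = 0.00016), and Myc, a transcription factor of growth and division, rose by 2.08 (SE 0.20, adjusted p = 0.00045). Jun, another AP-1 subunit, was the gene called lower, at -0.49 (adjusted p = 0.0213), and was named after its value was seen. Across the 5 lists, mutant 3 was the lowest mutant array in 13 of the 20 genes called higher. The share over all probe sets called higher was not computed, so nothing is read from this count.

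**Figure D4:**
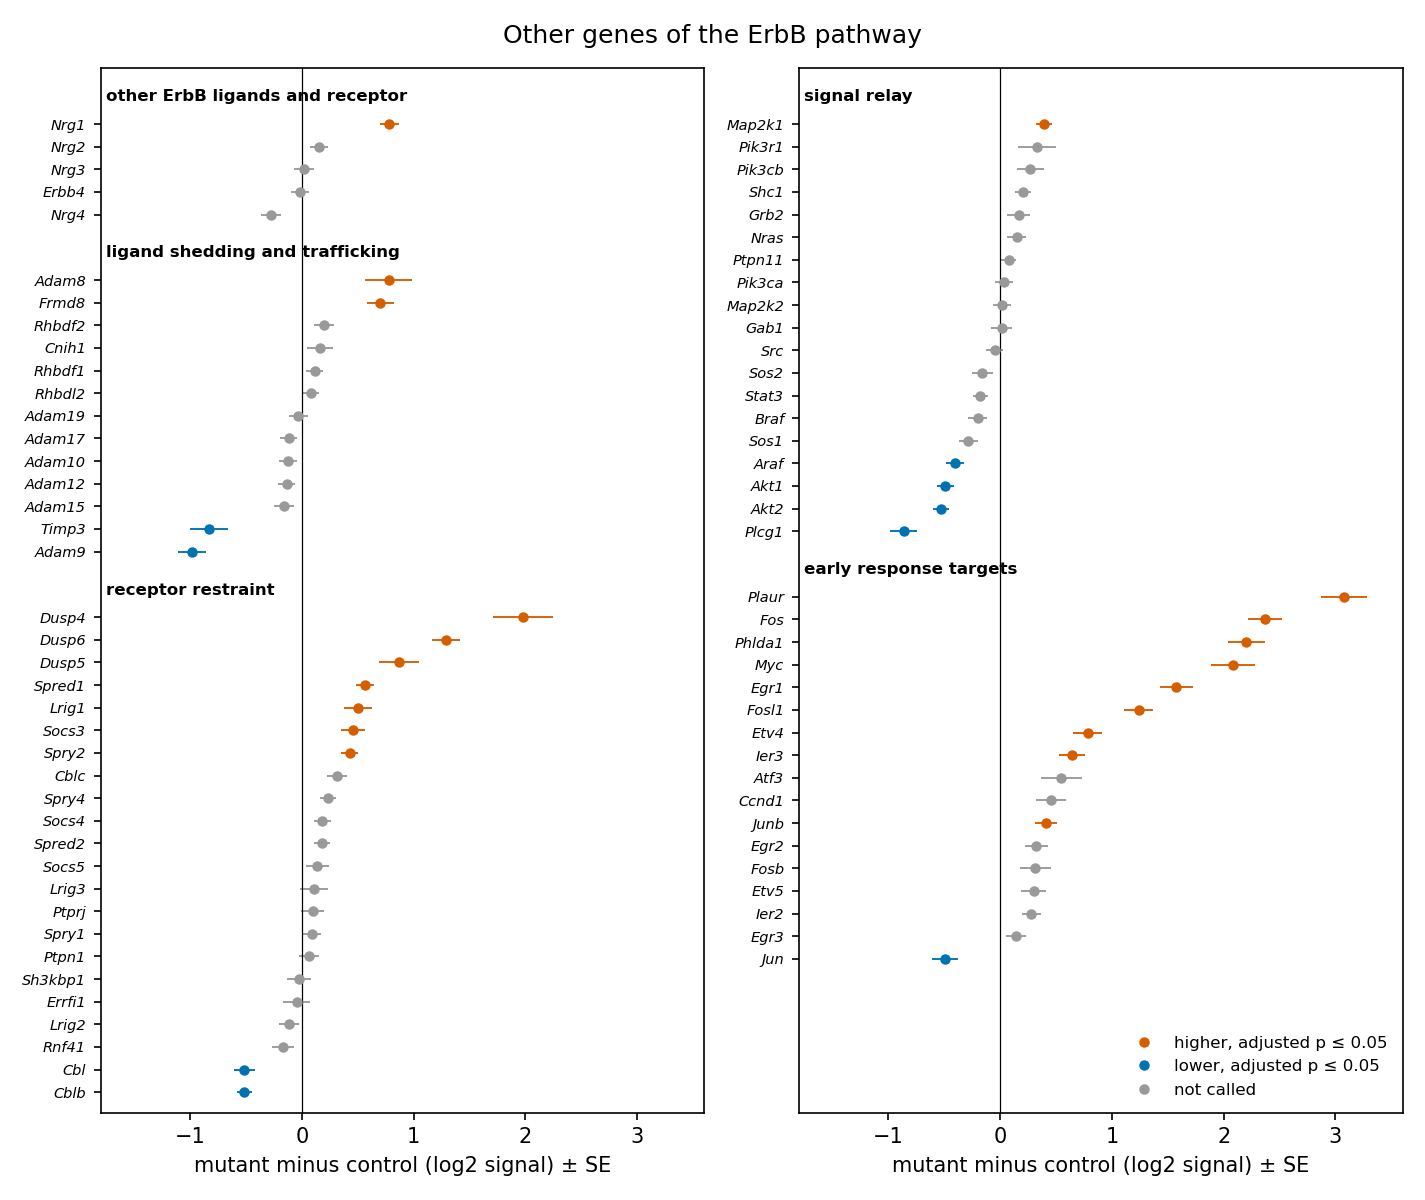
Mutant minus control difference in log2 signal, with SE from limma (n = 3 per group), for the 76 measured genes of the 5 pathway lists, with genes called higher in orange, called lower in blue and not called in grey. Early response targets and phosphatase genes hold the points farthest to the right, led by Plaur at 3.08, and Adam9, at -0.98, is the point farthest to the left.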

How the data were processed

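RNA of 3 control and 3 mutant samples of villi was hybridised to Affymetrix whole-transcript arrays, and the authors deposited 1 table of normalised log2 signals, rounded to 2 decimals, for 30177 probe sets. The sources used here do not give the background correction, normalisation or software. The study's fold changes and false discovery rates were not used. Probe sets were named from the platform annotation. It gave 1 symbol to 21789 probe sets and several to 1621, and it did not list 6767. The probe set with the highest mean stood for a gene.

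A linear model of genotype without a block was fitted to every probe set in limma 3.58.1 (lmFit, eBayes) under R 4.3.3, and p-values of all probe sets were adjusted together by the Benjamini-Hochberg method, with a threshold of 0.05. The script was tested on simulated data. The methods and labels describe the samples as littermates, but 2 controls held both Xist and Y-linked transcripts, so whether each array was 1 animal is unsure, p-values measure the spread between these samples, which may be partly technical, and 3 arrays per group limit the precision. Members and lists were chosen with earlier results of these data known. The text names all members, Trpm7, the sex-linked Xist and Eif2s3y, and up to 4 called genes with the largest absolute difference per pathway list. From the neutrophil, goblet and crypt marker lists it names the 2 called genes with the largest absolute difference. The other marker lists are given as counts, and their genes, some with large differences, are not named. Neighbours of the ligand genes were named by position. The text says where another gene was chosen after its values were seen. Alternatives changed the normalisation, variance model, array weights, block, dim-probe filter, tested probe sets, controls 2 and 3, an offset of 32 on the linear scale, the call rule and each replicate. Counting the probe set named Areg was added after seeing the data.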

Additional observations from a re-analysis of the deposited data

How the results depend on the processing

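The differences of Ereg, Hbegf, Btc and Egfr kept their direction and an adjusted p of 0.05 or less in every alternative fit, and Btc and Egfr lost their call when a 2-fold change was also required. Over all alternatives Ereg ranged from 2.73, with an offset of 32, to 3.47. With single arrays left out, Ereg ranged from 3.14 to 3.47, Hbegf from 1.34 to 1.68, Btc from 0.81 to 1.02, Egfr from 0.57 to 0.69 and Erbb2 from -0.34 to -0.28. The members called fell to 4 where Erbb2 lost its call, and to 2 under that rule. The probe sets called, 5088, ranged from 3249 (without mutant 2) to 4385 with 1 array left out, and were 3336 without control 2. Fewer samples enter those fits. The pathway genes called, 29, ranged from 22 to 35. Of the members that were not called, Egf and Erbb3 changed sign, and Tgfa and Epgn did not. Egf, at -0.02, was 0.02 without control 2 and 0.03 without mutant 3, and ranged from -0.0583 to 0.0267 over the arrays left out. Erbb3, at 0.05, was -0.005 after quantile normalisation; the cause was not tested. Of all comparisons of single genes with alternatives, 397 kept direction and side of the threshold, 15 lost the call and 3 changed sign.

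Same-numbered arrays deviated from their group means with correlations of 0.174, 0.039 and 0.119. Each mutant correlated best with its same-numbered control, whereas control 2 correlated best with mutant 3, at 0.085. The labels give the numbers no meaning, so they were not taken to pair the samples in the main fit, and whether they do is unsure. With the replicate block 4957 probe sets, 5 members and 31 pathway genes were called. No other probe set had a member's single symbol, so the choice of the probe set with the lowest mean gave no value. Egf and Epgn were removed by the filter on dim probe sets. Signals under the array medians, as for Egf and Epgn, limit what these arrays can show.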
